A study of Homo sapiens with 16 samples.

Results

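Phagocyte genes are described here as a set of 35 genes, named by symbol, that encode the receptors with which phagocytes recognise particles and microbes, the oxidase with which they attack them, and proteins they secrete or display. All 35 symbols were found among the 34618 gene IDs of the deposited count table. The genes were measured by RNA sequencing in U937, a promonocytic cell line, and KG1A, an immature CD34-positive line, both labelled as acute myeloid leukaemia lines. The groups were U937 with NEL at 10 µM, U937 with the vehicle DMSO, KG1A with NEL at 10 µM and KG1A with DMSO, with 4 libraries each and 16 in all. Both lines grew in RPMI medium with dialyzed serum and antibiotics. The labels do not spell out NEL, which is taken to be the purine nucleoside analogue nelarabine from knowledge of the study, and they give no treatment time. Every result is that of 2 lines, and the labels leave unsaid whether the 4 libraries per group are separate cultures. The spread behind each p-value is thus that of libraries and may be technical.

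Phagocytes bind antibody-coated particles through Fc receptors and sense fungal, bacterial and complement-derived molecules through C-type lectins, Toll-like receptors and chemotactic receptors. Many of these receptors have no signalling tail of their own and pair with the adaptor proteins encoded by FCER1G and TYROBP, whose ITAM motifs recruit the kinase SYK. On activation the NADPH oxidase assembles from a membrane core, encoded by CYBB and CYBA, and cytosolic subunits such as those encoded by NCF1 and NCF4, and makes superoxide. Most of these genes are low in progenitors and increase as monocytes and granulocytes mature, and PU.1, a transcription factor that binds a purine-rich box, is known to drive several of them.

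The 250 bases before the start of transcription were read for 6 members whose values carry the results below, to show the sequence around the box that PU.1 is known for. They are from RefSeq on GRCh38.p14, which held a promoter for 28 of the 35 members, and are written 5′ to 3′ on the strand of the gene. Capitals mark GAGGAA or, for the other strand, TTCCTC. NCF1 is at chr7:74773761-74774010, plus strand, CYBB at chrX:37779809-37780058, plus strand, TYROBP at chr19:35908296-35908545, minus strand and CD52 at chr1:26317708-26317957, plus strand. FCER1G, at chr1:161215045-161215294, plus strand, and SPP1, at chr4:87975464-87975713, plus strand, held neither.
NCF1: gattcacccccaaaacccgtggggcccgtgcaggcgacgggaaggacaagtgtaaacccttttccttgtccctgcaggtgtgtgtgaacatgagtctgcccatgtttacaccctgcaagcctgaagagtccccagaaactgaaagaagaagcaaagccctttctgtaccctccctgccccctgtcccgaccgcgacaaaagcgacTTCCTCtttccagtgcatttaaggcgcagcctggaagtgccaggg
CYBB: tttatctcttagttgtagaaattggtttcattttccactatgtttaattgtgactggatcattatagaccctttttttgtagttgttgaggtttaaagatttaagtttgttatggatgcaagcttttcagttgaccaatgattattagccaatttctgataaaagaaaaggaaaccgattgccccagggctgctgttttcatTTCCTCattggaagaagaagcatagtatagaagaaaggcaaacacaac
TYROBP: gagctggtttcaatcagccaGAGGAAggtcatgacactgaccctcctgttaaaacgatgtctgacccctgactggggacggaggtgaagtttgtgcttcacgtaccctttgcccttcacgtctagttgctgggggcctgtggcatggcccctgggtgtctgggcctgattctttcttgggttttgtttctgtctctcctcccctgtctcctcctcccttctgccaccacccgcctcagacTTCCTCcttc
CD52: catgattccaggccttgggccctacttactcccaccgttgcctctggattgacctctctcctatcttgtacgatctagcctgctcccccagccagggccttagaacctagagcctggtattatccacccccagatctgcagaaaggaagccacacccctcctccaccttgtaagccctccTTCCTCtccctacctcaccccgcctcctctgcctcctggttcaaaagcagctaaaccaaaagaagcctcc
FCER1G: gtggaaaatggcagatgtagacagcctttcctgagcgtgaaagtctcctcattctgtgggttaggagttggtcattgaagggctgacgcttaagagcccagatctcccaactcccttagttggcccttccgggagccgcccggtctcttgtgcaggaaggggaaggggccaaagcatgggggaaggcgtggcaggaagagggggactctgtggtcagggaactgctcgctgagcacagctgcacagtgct
SPP1: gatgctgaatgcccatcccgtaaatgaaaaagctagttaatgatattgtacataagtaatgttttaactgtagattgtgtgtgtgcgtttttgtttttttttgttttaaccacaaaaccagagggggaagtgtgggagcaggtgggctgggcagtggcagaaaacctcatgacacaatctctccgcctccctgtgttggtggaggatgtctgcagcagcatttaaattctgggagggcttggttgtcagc
Between the nearest box and the start lay 39 bases in NCF1, 42 in CYBB, 4 in TYROBP and 64 in CD52. GAGGAA on either strand was found in 17 of the 28 member promoters (60.7%), and in 8277 of 35116 promoters of all RefSeq entries (23.6%). The C/EBP letters TTGCNNAA, also searched on both strands, were found in 3 of the 28 (10.7%) and in 3178 of all (9.05%). A match of letters is a description and not a binding site, and 6 letters can be missed where the box is written with other bases.

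Total counts ran from 11157449 to 11777684 per library in U937 and from 10641567 to 11049006 in KG1A. The labels name no batch, but libraries numbered 1 and 3 deviated together from those numbered 2 and 4 in both groups of both lines, so values in the odd-numbered and the even-numbered libraries stand beside the main results. CPM are counts scaled to a fixed library total, here with TMM factors over all 16 libraries. Markers of the lines went with their labels. All 5 progenitor markers lay above 1 CPM in KG1A and none in U937, with sums of 1.93 to 2.35 CPM in U937 with NEL and 0.603 to 1.32 CPM with DMSO, and 1102 to 1231 and 1066 to 1157 CPM in KG1A. Of 5 primary granule markers, 4 were above 1 CPM in U937, where they summed to 1870 to 1948 CPM with NEL and 2775 to 2938 CPM with DMSO, and 1 in KG1A, where the sums were 3.14 to 4.56 and 1.15 to 1.91 CPM. CD14, the lipopolysaccharide co-receptor of mature monocytes, was near absent, with 9 counts over the U937 libraries with NEL and 14 with DMSO, and 3 and 8 in KG1A. T lymphoid markers summed to at most 0.578 CPM in U937, and to 143 to 156 CPM in KG1A with NEL and 140.2 to 162 CPM with DMSO. Erythroid and megakaryocyte markers summed to at most 1.21 CPM in U937, and to 587 to 621 and 498 to 519.6 CPM in KG1A with NEL and with DMSO, with 3 of 5 at 0. The sums over B lymphoid and over natural killer markers were higher with NEL in both lines without overlap, although of the 2 B lymphoid markers tested in KG1A PAX5 rose and CD79A fell. The B lymphoid sums were 47.3 to 53.5 and 26.6 to 34.0 CPM in U937 with NEL and with DMSO, and 9.11 to 12.6 and 6.57 to 7.88 CPM in KG1A. The natural killer sums were 259.7 to 319 and 178 to 219 CPM in U937 and 99.5 to 116 and 48.6 to 52.0 CPM in KG1A. They were almost all NKG7, at means of 289 and 199 CPM in U937 and 102 and 47.1 CPM in KG1A. KLRF1 was the only other natural killer marker tested. Primary granule sums with NEL were lower in U937 and higher in KG1A. Of the 4 markers tested in U937, 3 fell and AZU1 rose, from 245 CPM with DMSO to 397 CPM with NEL. CTSG was the only one tested in KG1A, at 2.84 CPM with NEL and 1.21 CPM with DMSO. The part of these markers in the results was not tested.

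A member was called silent in a line when its 8 libraries together held at most 3 counts, a floor of 0.0327 CPM in U937 and 0.0344 CPM in KG1A. In U937, 4 of the 35 members were silent. These were TLR8, a sensor of single-stranded RNA, and CD163, the haemoglobin scavenger receptor, both with 0 counts, and MSR1, the class A scavenger receptor, and VCAN, which encodes the proteoglycan versican, with 1 count each. In KG1A, 10 members were silent. TLR2, FCGR1A, NCF1 and LILRB4 had 0 counts in all 8 KG1A libraries, TLR8, CD163 and CEACAM6 had 1, and TLR4, FPR1 and FCN1 had 2. TLR8 and CD163 were thus silent in both lines. By a looser rule, that no library reached 1 CPM, 6 members were off in U937 and 19 in KG1A, so the count in KG1A depends on the rule. The 9 members between the rules in KG1A were CD86, CD4, TYROBP, CLEC5A, CD36, CD68, NCF4, SIRPA and LYZ, with 5 to 34 counts over the line. In U937 they were CD86 and CD68, with 29 and 32 counts. CD163 shares 9085 bases of its span with CD163L1 on the same strand, which held 535 counts in U937 with NEL and 304 with DMSO, so reads in that stretch may have gone uncounted and its silence is uncertain there. The span of CD68 is covered for 2558 bases by another entry on the same strand, so its level cannot be read from the table.

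**Figure D1:**
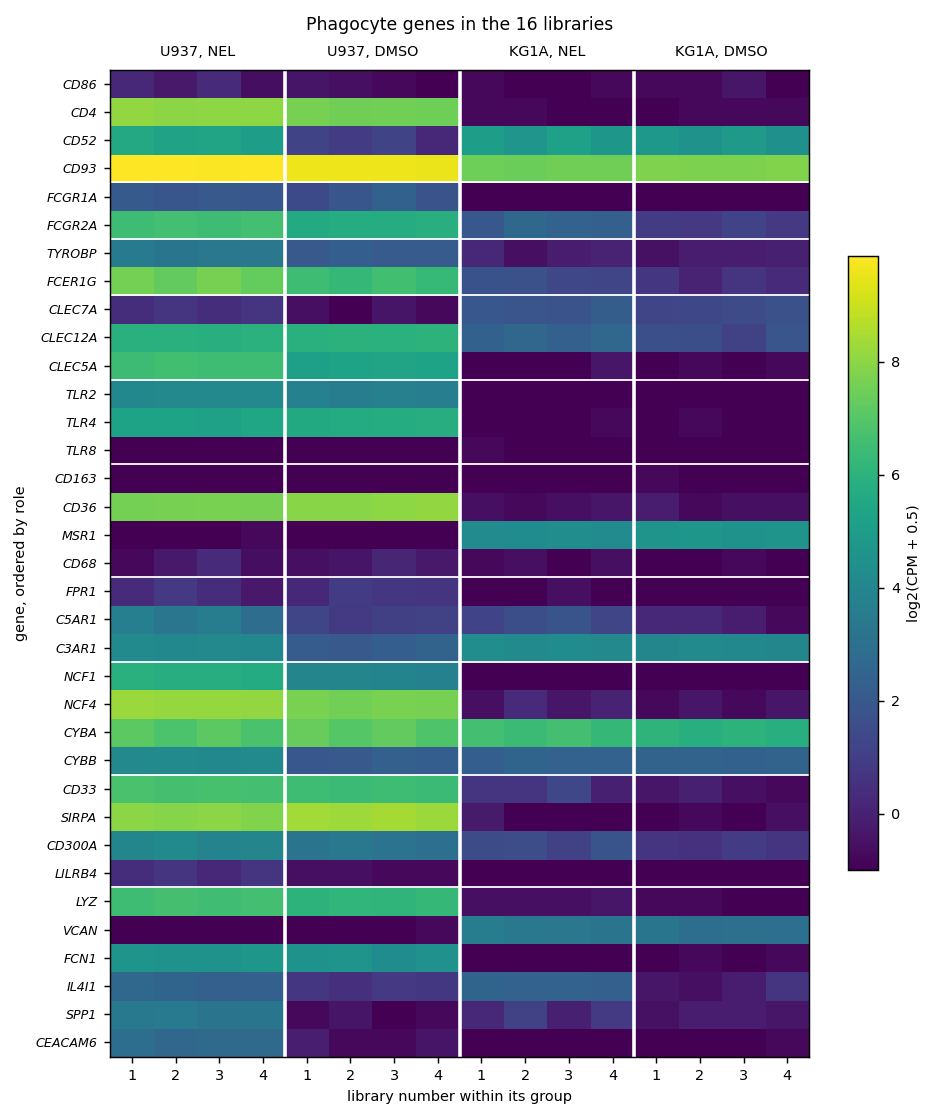
Level of each of the 35 genes (rows, grouped by role) in each of the 16 libraries (columns, 4 per group), as log2(CPM + 0.5). The 2 U937 groups are bright in many rows where the 2 KG1A groups are dark, while MSR1, VCAN and CLEC7A show the reverse.

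Per exon length, FCER1G and NCF4 led in U937 with NEL, at 194 ± 27.3 and 174 ± 4.72 RPKM (mean ± SD, n = 4), values that do not differ beyond their spread. RPKM, the authors' counts per exon length and library total, is used for levels between genes, and as the input of the limma-trend alternatives. CD93, a glycoprotein of myeloid and endothelial cells, followed at 147 ± 1.07 RPKM, and SIRPA, CD4 and LYZ came next at 63.6 ± 3.90, 60.8 ± 2.36 and 57.1 ± 3.14 RPKM. CD93 and NCF4 led in U937 with DMSO at 113 ± 1.24 and 113 ± 3.92 RPKM, ahead of FCER1G at 85.8 ± 9.52 and SIRPA at 78.3 ± 3.75 RPKM, and neither the first pair nor the second differed beyond their spread. In KG1A only a few members stood above 1 RPKM. With NEL the highest were CD52 at 32.7 ± 5.81, CD93 at 26.6 ± 0.788, CYBA at 26.6 ± 3.32, C3AR1 at 8.44 ± 0.504 and FCER1G at 2.46 ± 0.486 RPKM. With DMSO they were CD93 at 31.1 ± 0.671, CD52 at 25.5 ± 3.35, CYBA at 17.4 ± 1.49, C3AR1 at 7.26 ± 0.413 and MSR1 at 3.03 ± 0.177 RPKM.

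**Figure D2:**
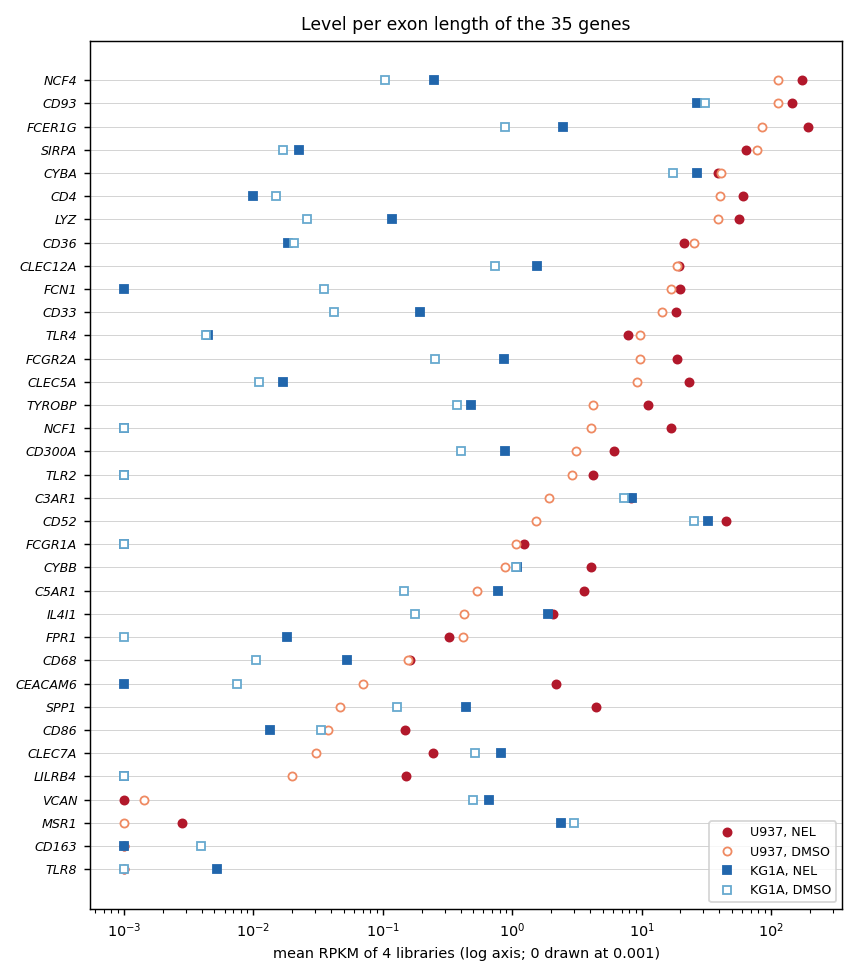
Mean level per exon length of each gene in the 4 groups (RPKM of 4 libraries, log axis, 0 drawn at 0.001), ordered by the level in U937 with DMSO. The KG1A squares lie left of the U937 circles for most genes, and right of them for VCAN, MSR1 and CLEC7A.

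With NEL, most of the phagocyte genes that U937 expresses were higher. Of the 28 members that passed the filter on low counts in U937, 20 rose (71.4%), against 34.6% of all 14390 genes tested there. Only CD36, TLR4 and SIRPA fell, against 34.7% of all genes, so that 23 of 28 were called, against 69.3%. A gene was called when its edgeR quasi-likelihood p, adjusted by Benjamini-Hochberg over all genes tested, was under 0.05. In 23 of the 28 tested members, the called ones, the 4 NEL libraries lay on one side of the 4 DMSO libraries, as they did for 62.6% of all genes tested. The median log2 fold change of the tested members was 0.70 and that of all genes -0.00438. Of the members, 12 were called and at least 2-fold higher, against 8.70% of all genes. FCGR1A, CLEC12A, FPR1, CYBA and FCN1 were not called. CD86, TLR8, CD163, MSR1, CD68, LILRB4 and VCAN had too few counts and were not tested. In these bulk libraries fewer expressing cells and less RNA per cell cannot be told apart, and a member that passed the filter only through the group where it is high had to differ. SPP1, CEACAM6, CLEC7A, CD52 and IL4I1 passed in U937 only through their NEL libraries. Their rise in U937, at least 2-fold in each, was favoured by the filter and adds no support to these counts.

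KG1A tested 14 members. Of these 9 rose with NEL (64.3%), against 23.6% of all 14250 genes tested, and CD93 and MSR1 fell, against 23.6%, so that 11 of 14 were called, against 47.2%. CD52, C3AR1 and CYBB were not called. The median log2 fold change was 0.57 over the tested members and -0.00448 over all genes, and 6 members were called and at least 2-fold higher, against 2.79% of all genes. C5AR1, IL4I1, FCER1G and CD300A passed the filter in KG1A only through their NEL libraries. For CD300A this was by a narrow margin, with 11, 10, 15 and 11 counts in the DMSO libraries. The rise of these members was thus favoured by the filter and adds no support to these counts. Of the 14 tested members 10 had groups that lay apart, all called, as had 41.9% of all genes tested, and the groups of VCAN overlapped although it was called. Over all genes in KG1A the higher and lower calls numbered 3366 and 3362 with edgeR but 4106 and 2263 with limma-trend on log2(RPKM + 0.5), while the members gave 9 and 2 or 10 and 2.

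**Figure D3:**
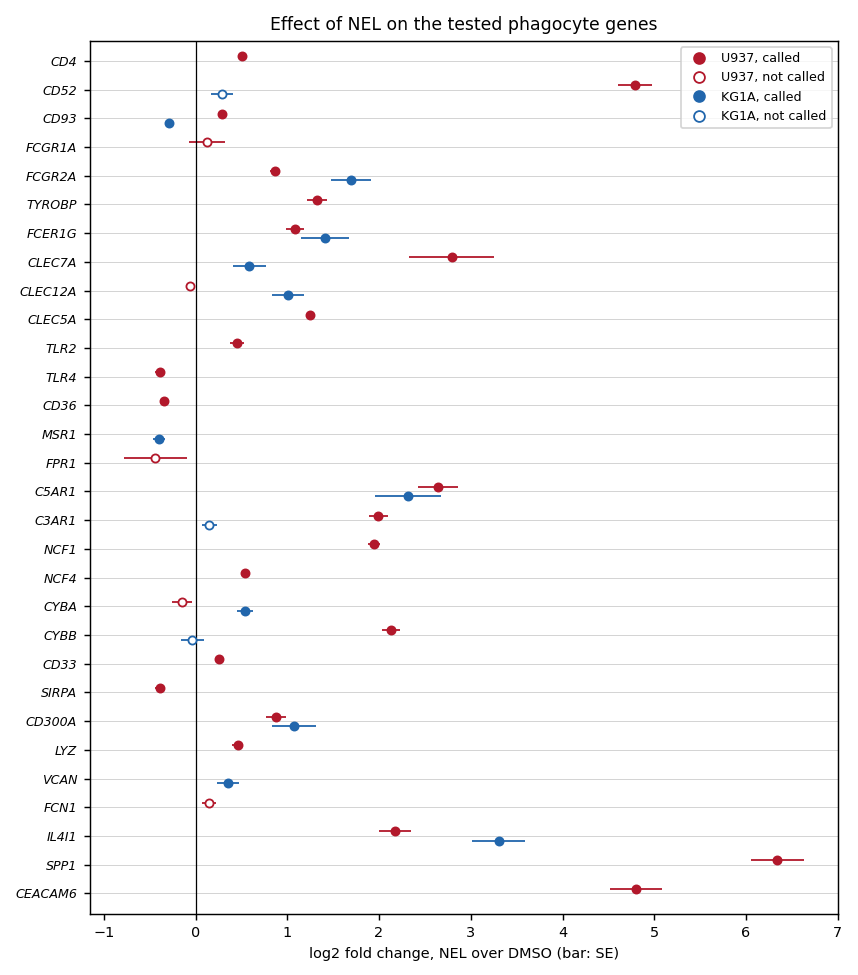
Log2 fold change, NEL over DMSO, of the 30 members tested in at least 1 line, with U937 in red and KG1A in blue, filled where called and with the SE as bars. SPP1, CEACAM6 and CD52 lie farthest right in U937, and IL4I1 in KG1A.

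The Fc receptor FCGR2A, which binds complexed IgG and carries its own ITAM-like motif, rose in both lines. FCGR2A (ENSG00000143226, chromosome 1, 161475220 to 161493803 on GRCh37) had 90.3, 98.9, 90.0 and 97.8 CPM in the 4 U937 libraries with NEL, against 49.1, 52.5, 52.1 and 55.9 CPM with DMSO. In KG1A it had 3.32, 5.70, 4.81 and 4.56 CPM with NEL, against 1.34, 1.24, 1.80 and 1.22 CPM with DMSO. The groups were apart in both lines, and U937 held 21.8 times the KG1A level with NEL and 38.4 times with DMSO. The log2 fold change was 0.86 ± 0.05 in U937 (SE, n = 4 per group, edgeR adjusted p = 5.85e-09) and 1.70 ± 0.21 in KG1A (edgeR adjusted p = 1.61e-05), with 1.35 from libraries 1 and 3 alone and 2.05 from libraries 2 and 4 of KG1A. U937 minus KG1A was -0.84 ± 0.20 (edgeR adjusted p = 0.00173), a call lost in the odd-numbered libraries (-0.49, edgeR adjusted p = 0.172) and at 0.074 with limma-trend on log2(RPKM + 0.5), where low values weigh less (limma adjusted p = 0.628). FCGR2A lies beside the closely similar FCGR2B and FCGR2C, which held 3237 and 1220 counts over the U937 libraries with NEL and 585 and 260 with DMSO, and at most 2 in KG1A groups. Reads that these genes share could have been split in the counting, so the FCGR2A change in U937 is uncertain in size.

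FCGR1A, the high-affinity IgG receptor (ENSG00000150337, chromosome 1, 149754227 to 149764074), was low in U937 and did not pass the test. Its libraries held 3.78, 3.22, 3.61 and 3.39 CPM with NEL and 2.20, 3.21, 4.66 and 2.93 CPM with DMSO, and the groups overlapped (log2 fold change 0.13 ± 0.20, edgeR adjusted p = 0.585). The gene has near-identical copies and overlaps entries on the opposite strand, and its level is therefore uncertain.

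Both ITAM adaptors rose in U937. FCER1G, the common gamma chain of Fc receptors (ENSG00000158869, chromosome 1, 161185024 to 161190489), had 196, 153, 199.6 and 157 CPM with NEL, against 89.7, 74.7, 95.0 and 76.8 CPM with DMSO. Libraries 1 and 3 were the higher ones in either group, and the groups did not overlap. The log2 fold change was 1.09 ± 0.10 in U937 (edgeR adjusted p = 2.27e-07), with 1.12 from libraries 1 and 3 alone and 1.04 from libraries 2 and 4. In KG1A, FCER1G was scarce, at 2.86, 2.71, 1.98 and 1.95 CPM with NEL and 1.15, 0.572, 1.04 and 0.753 CPM with DMSO, and the groups were also apart (log2 fold change 1.41 ± 0.26, edgeR adjusted p = 4.33e-04). The effects of the lines were not called different (-0.34 ± 0.39, edgeR adjusted p = 0.514). TYROBP, known as DAP12, the adaptor of TREM and several lectin receptors (ENSG00000011600, chromosome 19, 36395303 to 36399197), had 10.4, 8.92, 9.82 and 9.34 CPM in U937 with NEL, against 3.61, 4.25, 3.86 and 3.79 CPM with DMSO. It rose 2.51-fold (log2 fold change 1.33 ± 0.11, edgeR adjusted p = 1.12e-07), and the library sets gave 1.46 and 1.20. TYROBP held 19 counts over the KG1A libraries with NEL and 15 with DMSO and was not tested there.

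The C-type lectins differed between the lines. CLEC5A, a lectin that signals through TYROBP (ENSG00000258227, chromosome 7, 141627157 to 141646807), had 87.3, 95.5, 89.0 and 91.1 CPM in U937 with NEL, against 35.2, 39.2, 40.7 and 39.2 CPM with DMSO. That rise of 2.38-fold (log2 fold change 1.25 ± 0.05, edgeR adjusted p = 1.69e-10) stood well clear of the spread between libraries, while KG1A held 3 and 2 counts in its groups. CLEC5A lies inside MGAM on the other strand, and whether the counting used strand is not given in the sources. CLEC7A, the beta-glucan receptor dectin-1 (ENSG00000172243, chromosome 12, 10269376 to 10282857), had 10, 13, 10 and 13 counts in the 4 U937 libraries with NEL and 2, 0, 3 and 1 with DMSO, without overlap. It was more abundant in KG1A, at 3.41, 3.17, 2.92 and 4.18 CPM with NEL and 1.92, 2.10, 2.28 and 2.73 CPM with DMSO, again without overlap. CLEC7A rose in both lines, by 2.79 ± 0.46 on the log2 scale in U937 (edgeR adjusted p = 9.60e-05) and by 0.59 ± 0.18 in KG1A (edgeR adjusted p = 0.0152). The KG1A call was lost without KG1A NEL library 4 (edgeR adjusted p = 0.0528) and in either library set alone (0.0968 and 0.0668). CLEC12A, an inhibitory lectin of myeloid cells, rose in KG1A alone, at 4.70, 5.61, 4.53 and 5.58 CPM with NEL against 2.69, 2.57, 1.71 and 3.11 CPM with DMSO (log2 fold change 1.01 ± 0.17, edgeR adjusted p = 2.70e-04). U937 held 59.1 ± 1.33 CPM with NEL and 62.4 ± 2.33 CPM with DMSO (mean ± SD, n = 4), overlapping groups and no call (edgeR adjusted p = 0.266). The difference of the effects was -1.08 ± 0.15 (edgeR adjusted p = 4.64e-06). Entries on the opposite strand, CLEC12A-AS1 and CLEC1B, overlap CLEC12A.

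Of the 3 Toll-like receptors among the members, TLR2 and TLR4 moved in opposite directions in U937, and all 3 were silent in KG1A. TLR2, the receptor for bacterial lipoproteins (ENSG00000137462, chromosome 4, 154622652 to 154626851), had 16.4, 16.8, 16.8 and 17.1 CPM with NEL, against 13.4, 11.4, 12.9 and 12.1 CPM with DMSO. TLR4, the lipopolysaccharide receptor (ENSG00000136869, chromosome 9, 120466610 to 120479149), had 39.5, 38.7, 36.5 and 41.8 CPM with NEL, against 48.5, 51.6, 52.4 and 54.9 CPM with DMSO. Neither pair of groups overlapped, and the log2 fold changes were 0.45 ± 0.08 for TLR2 (edgeR adjusted p = 1.17e-04) and -0.39 ± 0.06 for TLR4 (edgeR adjusted p = 3.37e-05). TLR8 had no count in U937. Other receptors of the family were present in KG1A, where TLR1 held 818 counts with NEL and 714 with DMSO, and TLR6 held 954 and 797, neither called (edgeR adjusted p = 0.213 and 0.0751).

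Of the 4 scavenger receptors and macrophage antigens among the members, CD36 was well expressed in U937 and MSR1 in KG1A, and both fell there. CD36, the receptor for oxidised lipoproteins and apoptotic cells (ENSG00000135218, chromosome 7, 79998891 to 80308593), had 195, 201, 205 and 199 CPM in U937 with NEL, against 244, 247, 262 and 273 CPM with DMSO. Its log2 fold change was -0.34 ± 0.04 (edgeR adjusted p = 1.10e-05), and KG1A held 8 counts with NEL and 9 with DMSO. MSR1 had 18.7, 18.9, 19.5 and 18.2 CPM in KG1A with NEL, against 24.1, 26.9, 23.5 and 24.2 CPM with DMSO, with a log2 fold change of -0.40 ± 0.07 (edgeR adjusted p = 2.63e-04). All NEL libraries lay below all DMSO libraries in both cases. With DMSO, U937 held 0 MSR1 counts and KG1A 1037, so that MSR1 was at least 367-fold lower in U937, where the floor is 3 counts over the group.

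The complement receptor C5AR1, through which the fragment C5a attracts phagocytes, rose in both lines. C5AR1 (ENSG00000197405, chromosome 19, 47793280 to 47825323) had 12.4, 9.17, 11.5 and 6.94 CPM in U937 with NEL, against 1.94, 1.30, 1.58 and 1.64 CPM with DMSO. In KG1A the values were 1.75, 2.53, 3.02 and 1.95 CPM with NEL and 0.672, 0.667, 0.380 and 0.0941 CPM with DMSO. The groups were apart in both lines, with U937 NEL library 4 the lowest of its group. The log2 fold changes were 2.64 ± 0.22 in U937 (edgeR adjusted p = 1.02e-07) and 2.32 ± 0.36 in KG1A (edgeR adjusted p = 9.74e-05), and by library set 2.78 and 2.46 in U937 and 2.14 and 2.53 in KG1A. No difference between the lines was called for C5AR1 (0.32 ± 0.58, edgeR adjusted p = 0.709).

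C3AR1, the receptor of the fragment C3a (ENSG00000171860, chromosome 12, 8210898 to 8219067), rose in U937 to the level it had in KG1A. It had 17.2, 16.2, 16.9 and 16.2 CPM in U937 with NEL, against 3.96, 3.64, 4.22 and 5.09 CPM with DMSO, and 19.4, 17.2, 19.0 and 17.1 CPM in KG1A with NEL, against 15.6, 17.4, 16.5 and 15.3 CPM with DMSO. The U937 groups were apart (log2 fold change 1.99 ± 0.10, edgeR adjusted p = 1.21e-09) and the KG1A groups overlapped (0.15 ± 0.08, edgeR adjusted p = 0.133). The effect was larger in U937 by 1.83 ± 0.13 (edgeR adjusted p = 1.52e-10). FPR1, the receptor of formylated bacterial peptides, was near the limit of detection in U937, with 9, 15, 10 and 4 counts in the NEL libraries and 8, 16, 13 and 13 in the DMSO libraries. FPR2 overlaps its span on the other strand. The groups overlapped (log2 fold change -0.44 ± 0.34, edgeR adjusted p = 0.270).

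Of the NADPH oxidase subunits, 3 of 4 rose in U937 and 1 of 2 tested in KG1A, and the subunit was not the same. NCF1, the cytosolic organiser of the complex (ENSG00000158517, chromosome 7, 74188309 to 74203659), had 59.0, 54.5, 54.2 and 51.9 CPM in U937 with NEL, against 14.8, 15.2, 14.3 and 13.4 CPM with DMSO. The lowest NEL library stood more than 3 times above the highest DMSO library, and the log2 fold change was 1.95 ± 0.06 (edgeR adjusted p = 1.87e-11), with 1.98 from libraries 1 and 3 alone and 1.91 from libraries 2 and 4. All 8 KG1A libraries had 0 counts, and NCF1 was at least 843-fold higher in U937 with NEL and at least 207-fold higher with DMSO. NCF1 has near-identical pseudogene copies, and the sources used here do not say how shared reads were counted, so its level is uncertain.

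CYBB, the catalytic core of the oxidase (ENSG00000165168, chromosome X, 37639264 to 37672714), had 17.1, 17.3, 16.3 and 17.2 CPM in U937 with NEL, against 3.34, 3.64, 4.48 and 4.22 CPM with DMSO. In KG1A it had 4.24, 5.25, 4.90 and 4.93 CPM with NEL and 4.99, 5.05, 4.65 and 4.99 CPM with DMSO. The U937 groups were far apart and the KG1A groups overlapped. CYBB rose 4.38-fold in U937 (log2 fold change 2.13 ± 0.10, edgeR adjusted p = 4.66e-10) and was at -0.04 ± 0.12 in KG1A (edgeR adjusted p = 0.853), a difference of 2.16 ± 0.15 (edgeR adjusted p = 1.77e-10). With DMSO the lines were close, and U937 was slightly lower (-0.35 ± 0.14, edgeR adjusted p = 0.0287). That small line difference was lost without KG1A DMSO library 1, 2 or 4 or U937 DMSO library 1 or 2 (edgeR adjusted p from 0.0509 to 0.0899), and with DESeq2 (adjusted p = 0.0716). An unnamed entry on the same strand covers all of CYBB and had 0 counts.

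NCF4, which binds phosphoinositides on the phagosome (ENSG00000100365, chromosome 22, 37257030 to 37274057), had 301, 288, 287 and 279 CPM in U937 with NEL, against 208, 191, 207 and 199 CPM with DMSO, with no overlap (log2 fold change 0.54 ± 0.04, edgeR adjusted p = 5.58e-08). KG1A held 19 NCF4 counts with NEL and 8 with DMSO. NCF4-AS1 overlaps the gene on the other strand. CYBA, the membrane partner of CYBB (ENSG00000051523, chromosome 16, 88709691 to 88717560), had 142, 109, 139 and 107 CPM in U937 with NEL and 161, 128, 152 and 116 CPM with DMSO. Those groups overlapped, with libraries 1 and 3 above 2 and 4 in each, and CYBA was not called (-0.15 ± 0.11, edgeR adjusted p = 0.238). With the replicate number as a block it was called lower (-0.15, edgeR adjusted p = 7.05e-05). In KG1A, CYBA rose, at 98.1, 85.8, 99.4 and 74.8 CPM with NEL against 65.9, 55.4, 64.9 and 58.1 CPM with DMSO (log2 fold change 0.54 ± 0.09, edgeR adjusted p = 1.24e-04, by library set 0.58 and 0.50). U937 minus KG1A was -0.70 ± 0.16 (edgeR adjusted p = 7.70e-04).

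**Figure D4:**
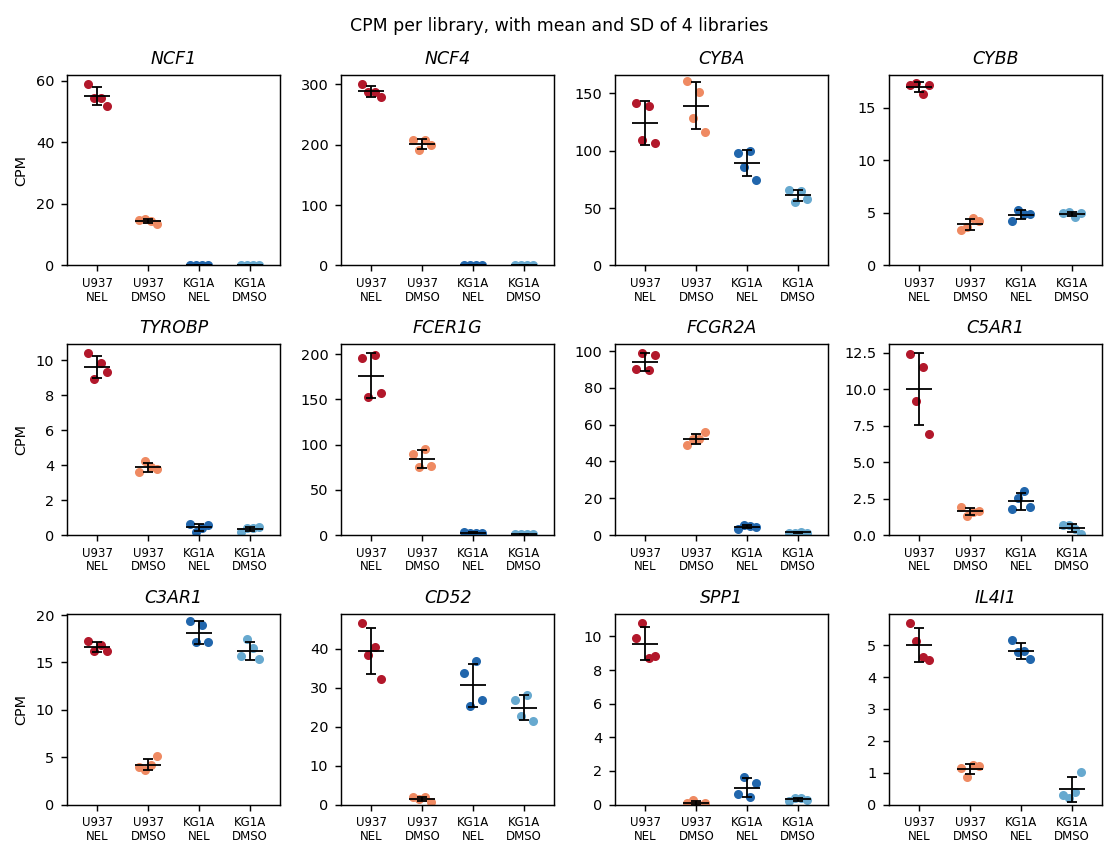
CPM of 12 members in each library (points), with the mean and SD of 4 libraries (bars), for U937 with NEL, U937 with DMSO, KG1A with NEL and KG1A with DMSO. NCF1 and CYBB stand higher with NEL in U937, NCF1 lies at 0 in KG1A, and C3AR1 in U937 with NEL reaches the KG1A level. The odd-numbered libraries of CYBA lie above the even-numbered ones, as do those of FCER1G except in KG1A with NEL.

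Inhibitory receptors, which recruit phosphatases through ITIM motifs, went both ways in U937. CD300A, a receptor for phospholipids of dying cells, had 15.3, 17.7, 14.2 and 14.9 CPM with NEL, against 8.53, 9.88, 8.34 and 7.41 CPM with DMSO. It rose in both lines, by 0.88 ± 0.10 in U937 (edgeR adjusted p = 4.25e-06) and 1.07 ± 0.24 in KG1A (edgeR adjusted p = 0.00200), where it had 2.31, 2.44, 1.70 and 3.07 CPM with NEL and 1.06, 0.953, 1.42 and 1.04 CPM with DMSO. Both pairs of groups were apart, but the odd-numbered KG1A libraries alone gave no call (0.68, edgeR adjusted p = 0.132). CD33, a sialic acid receptor of myeloid cells (ENSG00000105383, chromosome 19, 51728320 to 51747115), rose slightly in U937, with 109, 102, 106 and 98.2 CPM against 90.2, 84.1, 91.3 and 85.7 CPM with DMSO (log2 fold change 0.26 ± 0.05, edgeR adjusted p = 2.25e-04). KG1A held 50 CD33 counts over its NEL libraries and 11 over its DMSO libraries, below the filter. SIRPA, the receptor of the don't-eat-me signal CD47 (ENSG00000198053, chromosome 20, 1875154 to 1920543), fell in U937, to 252, 235, 256 and 224 CPM with NEL, against 331, 314, 338 and 301 CPM with DMSO. The groups were apart, with a log2 fold change of -0.39 ± 0.05 (edgeR adjusted p = 1.25e-05), and KG1A held 4 and 3 counts. LILRB4 was too low to test in U937, with 10, 13, 8 and 13 counts in the NEL libraries and 2, 2, 1 and 1 in the DMSO libraries, which did not overlap.

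Of the 4 adhesion and co-stimulation members, CD52, a glycoprotein of lymphocytes and monocytes (ENSG00000169442, chromosome 1, 26644448 to 26647014), changed most in U937. U937 had 46.8, 38.5, 40.4 and 32.3 CPM with NEL, against 1.85, 1.39, 1.84 and 0.690 CPM with DMSO. KG1A had 33.8, 25.2, 36.9 and 26.8 CPM with NEL and 27.0, 22.8, 28.2 and 21.5 CPM with DMSO. The U937 groups were far apart, with NEL libraries above all 4 KG1A libraries with DMSO and DMSO libraries far below them. CD52 rose 27.6-fold in U937 (log2 fold change 4.79 ± 0.18, edgeR adjusted p = 6.35e-11), with 4.58 from libraries 1 and 3 alone and 5.09 from libraries 2 and 4. The KG1A effect of 0.29 ± 0.12 was not called (edgeR adjusted p = 0.0597), but was with the replicate block (0.29, edgeR adjusted p = 1.12e-05), without KG1A DMSO library 3 or NEL library 2 or 4 (0.0184 to 0.0397) and with DESeq2 (adjusted p = 0.0490). U937 minus KG1A was 4.49 ± 0.26 (edgeR adjusted p = 8.87e-12). CD52 shares 407 bases with UBXN11 on the other strand, with 5526 counts in U937 with NEL and 3319 with DMSO, so its size is uncertain where strand was not used. With DMSO, CD52 in U937 was lower than in KG1A by a count ratio of 16.8 (95% interval 13.1 to 21.9), KG1A over U937.

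CD93 moved in opposite directions in the lines, by small steps. It had 939.5, 931, 912 and 924 CPM in U937 with NEL, against 770.2, 769.7, 766 and 764 CPM with DMSO, and 176, 174, 180.3 and 185 CPM in KG1A with NEL, against 218, 214, 214 and 223 CPM with DMSO. No groups overlapped, and the log2 fold changes were 0.29 ± 0.03 (edgeR adjusted p = 4.42e-06) in U937 and -0.29 ± 0.04 (edgeR adjusted p = 1.08e-05) in KG1A, a difference of 0.57 ± 0.04 (edgeR adjusted p = 9.27e-10). CD4, which human monocytes display at low density, rose in U937, with 278, 252, 261 and 258 CPM with NEL against 198, 185, 190.0 and 175 CPM with DMSO (log2 fold change 0.51 ± 0.05, edgeR adjusted p = 3.23e-07). KG1A held 2 and 3 CD4 counts. CD86, the co-stimulatory ligand, had 23 counts in U937 with NEL and 6 with DMSO, with overlapping groups and no test.

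Secreted and surface effectors held the 2 largest log2 fold changes of the members in U937, SPP1 and CEACAM6, and the largest in KG1A, IL4I1. SPP1, which encodes the matrix protein osteopontin of macrophages (ENSG00000118785, chromosome 4, 88896819 to 88904562), had 118, 131, 104 and 107 counts in the U937 libraries with NEL, against 1, 3, 0 and 1 with DMSO. It was close to 0 without NEL, and the fitted log2 fold change of 6.34 ± 0.29 (edgeR adjusted p = 3.08e-10) therefore rests on 5 counts in all. The change was 7.14 without U937 DMSO library 2, and 7.43 and 5.76 by library set. KG1A held 44 SPP1 counts with NEL and 13 with DMSO, in libraries that did not overlap but were below the filter. CEACAM6, a carcinoembryonic antigen of granulocytes (ENSG00000086548, chromosome 19, 42254885 to 42276113), had 86, 66, 74 and 76 counts in U937 with NEL, against 5, 1, 1 and 3 with DMSO (log2 fold change 4.80 ± 0.28, edgeR adjusted p = 3.64e-09). KG1A had 0 counts with NEL and 1 with DMSO. Unnamed entries on either strand overlap CEACAM6 and held at most 1 count in a group, and its close relative CEACAM5 held 14 counts in U937 with NEL and 2 with DMSO.

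IL4I1, a secreted oxidase of aromatic amino acids that curbs T cells (ENSG00000104951, chromosome 19, 50392911 to 50432796), rose in both lines. It had 5.71, 5.12, 4.62 and 4.54 CPM in U937 with NEL, against 1.14, 0.867, 1.23 and 1.21 CPM with DMSO, and 5.16, 4.79, 4.81 and 4.56 CPM in KG1A with NEL, against 0.288, 0.191, 0.380 and 1.04 CPM with DMSO. With NEL the lines reached like levels, and KG1A DMSO library 4 stood above the other 3 of its group. In KG1A the log2 fold change of 3.30 ± 0.29 (edgeR adjusted p = 5.18e-07) was the highest of all 14250 genes tested there, and 4.01 without KG1A DMSO library 4. Since IL4I1 passed the filter only through NEL libraries, a large rise was favoured and the rank adds no support. In U937 it was 2.18 ± 0.17 (edgeR adjusted p = 7.99e-08). U937 minus KG1A was -1.14 ± 0.38 (edgeR adjusted p = 0.0182), a call lost without KG1A DMSO library 1 or 2 (edgeR adjusted p = 0.0553 and 0.0641) and in the even-numbered libraries (0.348), and -1.85 without KG1A DMSO library 4. With DMSO, U937 was higher than KG1A by 1.19 ± 0.39 (edgeR adjusted p = 0.00992), or by 1.89 without KG1A DMSO library 4, and the groups overlapped. IL4I1 shares 22715 bases of its span with NUP62 on the same strand, whose counts were 7152 in U937 with NEL and 10037 with DMSO, and 7573 and 6052 in KG1A. Reads in that stretch may have gone uncounted, so the size of the IL4I1 changes is uncertain.

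LYZ, the lysozyme that cleaves bacterial cell walls (ENSG00000090382, chromosome 12, 69742121 to 69748014), had 90.1, 101, 91.4 and 97.3 CPM in U937 with NEL, against 65.1, 71.6, 67.9 and 75.3 CPM with DMSO, without overlap (log2 fold change 0.46 ± 0.06, edgeR adjusted p = 5.18e-06). An unnamed entry overlaps it on the opposite strand. FCN1, a lectin that activates complement (ENSG00000085265, chromosome 9, 137801431 to 137809809), had 24.0, 23.0, 23.0 and 26.8 CPM with NEL and 23.2, 23.9, 19.3 and 22.1 CPM with DMSO, overlapping groups (0.15 ± 0.08, edgeR adjusted p = 0.119). With the replicate block it was called higher (0.15, edgeR adjusted p = 0.0475), but not with libraries summed in pairs (0.14, edgeR adjusted p = 0.0901) or in either library set alone (0.137 and 0.234). VCAN, at 11.7, 9.68, 9.43 and 8.65 CPM in KG1A with NEL and 8.73, 7.05, 7.60 and 7.34 CPM with DMSO, was called higher (0.35 ± 0.12, edgeR adjusted p = 0.0256) although its groups overlapped. The VCAN call was lost without KG1A DMSO library 2, 3 or 4 or NEL library 1 (edgeR adjusted p from 0.0540 to 0.0889).

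Across the lines, 12 members were tested in both, 16 in U937 only, MSR1 and VCAN in KG1A only and 5 in neither. FCGR2A, FCER1G, CLEC7A, C5AR1, CD300A and IL4I1 were called higher in both, 6 of 12, against 11.7% of the 12590 genes tested in both. Of these, FCER1G, C5AR1, IL4I1 and CD300A passed the filter in KG1A only through their NEL libraries, and CLEC7A and IL4I1 did so in U937. Their calls there add no support to this count, and FCGR2A alone of these members passed in each group of both lines. The difference of the NEL effect, U937 minus KG1A, was tested as an interaction over all 16 libraries. Among these 12 members it was called positive for CD52, CYBB, CLEC7A, C3AR1 and CD93, against 24.8% of the genes tested in both. It was called negative for IL4I1, CLEC12A, FCGR2A and CYBA, against 32.3%, and not called for FCER1G, C5AR1 and CD300A. Over all 30 members the interaction model tested, 12 were called, against 47.4% of 16117 genes, with 7 positive and 5 negative, against 21.1% and 26.3%, and the members' own shares were 23.3% and 16.7%. NCF1, TLR2 and FCGR1A had 0 counts in KG1A and SE of 3468.5, 822 and 216, so they could not be called. For members with few or no reads in 1 line, a missing call does not mean a like effect in both lines. Over all genes the interaction gave 3404 higher and 4239 lower calls with edgeR on TMM factors. It gave 4122 and 3483 with edgeR on DESeq2 size factors, and 4015 and 3333 with the DESeq2 test. The added calls were SPP1 (4.66 ± 0.81, 5.45 without U937 DMSO library 2), CD33 (-1.84 ± 0.45) and CEACAM6 (6.42 ± 2.43), all below the filter in KG1A. The CEACAM6 value depends on the prior count, and its call was lost without KG1A DMSO library 4, which held the single KG1A read (4.80, edgeR adjusted p = 1.00).

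With DMSO alone, U937 had more RNA of most phagocyte genes than KG1A. Of 27 members tested, 21 were higher and 6 lower in U937, against 43.0% and 43.4% of 15181 genes. The 6 were CD52, CLEC7A, MSR1, C3AR1, CYBB and VCAN. A member that passed the filter only through the line where it is high had to differ, so its call adds no support to these counts. Passing through U937 only were CD4, FCGR1A, TYROBP, FCER1G, CLEC5A, TLR2, TLR4, CD36, C5AR1, NCF1, NCF4, CD33, SIRPA, LYZ and FCN1. Passing through KG1A only were CD52, CLEC7A, MSR1 and VCAN. CD93, FCGR2A, CLEC12A, CYBA and CD300A, higher in U937, and C3AR1 and CYBB, lower there, passed in either line alone. FCER1G was higher in U937 by a count ratio of 98.0 (95% interval 71.0 to 139), NCF4 by 1087 (95% interval 551 to 2518), CD33 by 345 (95% interval 192 to 691) and CYBA by 2.34 (95% interval 2.24 to 2.45), intervals that cover counting error only. SIRPA had 14722 counts in U937 and 3 in KG1A, a ratio of 4618 (95% interval 1580 to 22396). TLR4 had 2381 and 1, a ratio of 2241 (95% interval 402 to 88537), and VCAN had 1 in U937 and 323 in KG1A, a ratio of 343 (95% interval 61.2 to 13599), KG1A over U937. Few reads in the lower line left these last 3 intervals wide. TLR2 was at least 179-fold and FCGR1A at least 46.7-fold higher in U937, since KG1A had 0 counts.

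Other genes of the same pathways were read from 5 lists, naming in each line up to 2 called genes of smallest p in each direction. Among 8 partners of the oxidase, 4 rose and 3 fell in U937, against 34.6% and 34.7% of all genes. RAC2, the haematopoietic Rac GTPase, had 367 ± 35.7 CPM with NEL and 253 ± 21.7 CPM with DMSO (log2 fold change 0.56 ± 0.07, edgeR adjusted p = 8.00e-06). RAC1 (-0.36 ± 0.04) and the kinase gene PRKCD (-0.22 ± 0.05) fell. In KG1A, 1 of 7 tested partners rose, the proton channel gene HVCN1 (0.59 ± 0.05), and 1 fell, RAC1 (-0.20 ± 0.04), against 23.6% of all genes each way.

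Of the 14 tested genes of Fc receptors and ITAM signalling, 10 rose and 2 fell in U937, against 34.6% and 34.7% of all genes. FCGR2B, the inhibitory Fc receptor, had 67.4 ± 1.86 CPM with NEL and 12.8 ± 1.41 CPM with DMSO (2.42 ± 0.07, edgeR adjusted p = 4.45e-12), and TREM1, which amplifies inflammation through TYROBP, had 64.5 ± 1.85 and 14.1 ± 1.25 CPM (2.21 ± 0.06, edgeR adjusted p = 5.02e-12). SYK (-0.25 ± 0.04) and BTK (-0.18 ± 0.05), the kinases downstream, fell. In KG1A, against 23.6% of all genes each way, 2 of 6 tested genes rose, PTPN6 (0.86 ± 0.20) and BTK (0.68 ± 0.23), and 3 fell, LAT2 (-0.37 ± 0.04) and INPP5D (-0.25 ± 0.04) with the smallest p.

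In the Toll-like receptor pathway 3 of 10 tested genes rose and 3 fell in U937, near the 34.6% and 34.7% of all genes, and 2 and 2 of 13 in KG1A, against 23.6% and 23.6%. LY96, the partner of TLR4, held 63 counts in U937 with NEL and 4 with DMSO (3.77 ± 0.53), and in KG1A 18.7 ± 1.43 CPM with NEL and 11.4 ± 2.07 CPM with DMSO (0.70 ± 0.12, edgeR adjusted p = 1.85e-04). MYD88, the common adaptor (-0.66 ± 0.06, edgeR adjusted p = 1.86e-07), and the trafficking chaperone gene UNC93B1 (-0.74 ± 0.10) fell in U937. CNPY3, a chaperone gene of these receptors, rose in U937 (0.19 ± 0.06) and fell in KG1A (-0.24 ± 0.06). TICAM1 rose (0.44 ± 0.13) and TRAF6 fell (-0.21 ± 0.06) in KG1A.

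Scavenger, complement and chemotactic receptors rose in 9 and fell in 2 of 12 tested genes in U937, against 34.6% and 34.7% of all genes. In KG1A 6 of 9 rose, against 23.6%, with none lower. ITGAX and ITGAM, the chains that pair with ITGB2 as complement receptors, had the smallest p of the list in both lines. ITGAX had 65.8 ± 2.41 CPM in U937 with NEL and 3.86 ± 0.395 CPM with DMSO (4.11 ± 0.08), and 8.72 ± 0.357 and 3.02 ± 0.567 CPM in KG1A (1.52 ± 0.14). ITGAM was at 2.61 ± 0.07 in U937 and 2.32 ± 0.15 in KG1A. SCARB1 (-0.31 ± 0.07) and STAB1 (-0.66 ± 0.19) fell in U937. Of 9 tested genes listed as inhibitory myeloid receptors 8 rose in U937, against 34.6% of all genes, PILRA (2.25 ± 0.11) and SIRPB1 (1.13 ± 0.08) with the smallest p, and LILRB1 fell (-0.64 ± 0.21). SIRPB1, listed here by family, is an activating relative of SIRPA that pairs with TYROBP, and the list also holds CD47, which is a ligand and no receptor of this kind. KG1A tested 2 of that list, of which LAIR1 rose (0.18 ± 0.07, edgeR adjusted p = 0.0429). These lists are described by their counts, with no test over a list.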

How the data were processed

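Polyadenylated RNA was taken from U937 and KG1A (16 samples), extracted with Trizol and a column and made into stranded libraries, per the labels' protocols. The authors deposited raw counts per gene and RPKM, counts scaled by exon length and library total. The submitters' processing notes name bcl2fastq 2.18.0.12, TopHat2, HTSeq 0.11.2 and the build hg19, which is GRCh37. Neither the gene annotation nor the strand option of HTSeq is given in the sources used here. The deposited RPKM equal the counts divided by exon length and library total within a relative deviation of 1.86e-07. Gene IDs were matched to symbols with a reference table (32562 of 34618), and all coordinates of genes are those of the deposited files.

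Counts were tested with edgeR 4.0.16 in R 4.3.3 (quasi-likelihood, TMM) on genes kept by filterByExpr (count of 10, total of 15), within each line for NEL over DMSO, over all 16 libraries for the difference between lines, and over the DMSO libraries for the lines. P-values were adjusted by Benjamini-Hochberg over all genes tested and called under 0.05. Each SE was taken from the fold change and its F statistic. DESeq2 1.42.0, limma 3.58.1 on log2(RPKM + 0.5) and log2(RPKM + 0.1), other filters and scalings, left-out libraries, library sets and summed libraries were alternatives. The main edgeR fits of the 4 comparisons were tested on simulated data, with changes set in well-counted genes only. The alternatives were not tested in this way. Depth was 10641567 to 11777684 counts per library, so that the limit that 3 counts over a line allow is 0.0327 to 0.0344 CPM, for counting error only. Intervals of count ratios are exact, at 95%.

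Same-numbered libraries of NEL and DMSO deviated together, with correlations of 0.317 to 0.366 in U937 and 0.288 to 0.368 in KG1A over 11839 genes, each over 0.1, the criterion for a block. Libraries with other numbers of the same odd or even set correlated as highly (up to 0.403), and the own number was best in 2 of 4 libraries in U937 and 3 of 4 in KG1A, so the block also carries the set. The members, lists and alternatives were chosen with earlier results of these data known. All 35 members are accounted for, and of each pathway list the 2 called genes of smallest p in each direction are named, except 1 that is not reported here. Figures were drawn with matplotlib 3.10.9 in Python 3.11.15. No protein sequences were used.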

Additional observations from a re-analysis of the deposited data

Results flagged for a closer look

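In KG1A with DMSO, CYBB library 3 lay apart from the other 3, at 4.65 CPM against 4.99 to 5.05 CPM, the only such library among 84 groups looked at, where chance alone gives about 1 in 20. The CYBB effect in KG1A was not called.

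For 12 members the NEL effect differed between the lines in the interaction test, U937 minus KG1A on the log2 scale. The effect was larger in U937 for CD52 (4.49), CYBB (2.16), CLEC7A (2.19) and C3AR1 (1.83), and opposite in sign for CD93 (0.57), which rose in U937 and fell in KG1A. It was larger in KG1A for CLEC12A (-1.08), IL4I1 (-1.14), FCGR2A (-0.84) and CYBA (-0.70). SPP1 (4.66), CEACAM6 (6.42) and CD33 (-1.84) had too few counts for a test within KG1A. The call was lost in the odd-numbered libraries for CLEC7A (edgeR adjusted p = 0.147) and in the even-numbered libraries for CD33 (edgeR adjusted p = 0.126). With limma-trend on log2(RPKM + 0.5) the calls of CLEC7A (0.12, limma adjusted p = 0.358), CD33 (-0.0081, 0.960) and IL4I1 (-0.36, 0.0580) were lost, and that of CD33 also on log2(RPKM + 0.1) (-0.65, 0.0569).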

How the results depend on the processing

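Leaving out 1 library at a time kept the members called at 23 to 24 in U937 and 10 to 12 in KG1A, the interaction calls at 11 to 12, with 6 to 7 positive and 4 to 5 negative, and the line calls with DMSO at 26 to 28. Over all alternatives the calls ran from 22 to 26 in U937, 9 to 14 in KG1A and 26 to 30 between the lines. The interaction moved most, to 21 calls with limma-trend on log2(RPKM + 0.5) and 19 on log2(RPKM + 0.1), of which 15 and 14 were positive, and to 3 negative calls in the even-numbered libraries alone. On log2(RPKM + 0.5) the interaction turned positive for FCGR2A (0.074), LYZ (0.31), FCER1G (0.059), NCF4 (0.33) and CD300A (0.26). That scale understates the change of low genes, and the cause of the turn was not tested. On log2(RPKM + 0.5) and log2(RPKM + 0.1), CLEC12A turned positive in U937 (0.031 and 0.031) and CYBB in KG1A (0.019 and 0.024). In the odd-numbered libraries alone the interaction was positive for CD36 (0.28) and CD300A (0.15). In the even-numbered libraries alone it was positive for SIRPA (3.34) and negative for C5AR1 (-0.076), and CYBB in KG1A was at 0.017. With 1 library left out, the range crossed 0 for FCGR1A in U937 (-0.027 to 0.34) and CYBB in KG1A (-0.079 to 0.021). It also did so for the interaction of FCGR1A (-0.028 to 0.34), TLR4 (-1.99 to 1.23), CD36 (-0.56 to 0.10) and SIRPA (-1.66 to 2.46). Under the rule of 1 CPM, 19 members rather than 10 were silent in KG1A. Of the alternative values of single members and comparisons 2117 kept direction and side of the threshold, 42 gained a call, 37 lost one and 21 changed sign. Of those 21, FCGR2A was called before the change and LYZ after it, and the others were called in neither setting.

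With the replicate number as a block, taken as a pairing, 25 members were called in U937 and 12 in KG1A, and no call changed other than those of CYBA, FCN1 and CD52 given above. Depth limits the members with a few counts, above all in KG1A, where 21 of 35 were not tested. With libraries summed in pairs, each group holds 2 samples.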
